A study of Homo sapiens with 32 samples.

Results

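The genes described here are 48 human genes that license and copy DNA, followed in MM.1S, an established human multiple myeloma cell line, under 4 treatments. A gene belonged to the set when its symbol stood on a list of licensing and replication fork genes, and the rule set no limit on a measured value. All 48 had a row among the 24249 gene IDs of the deposited table, and all 48 passed the filter on low values that left 15827 genes to test. POLA2 stood on 2 gene IDs, and the ID with nearly all of its reads was used (the other held 0.501 to 1.98 FPM). FPM, a library's fragments scaled to a fixed total as in CPM, is the unit of every level below. It is a share of a library's reads and is not divided by gene length, so levels are compared between libraries and never between genes.

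Total RNA was sequenced from 8 libraries, each run on 4 lanes that were averaged here. Cells of every group were first given a pulse of 1 h, with DMSO (the vehicle) or with carfilzomib (Cfz, a proteasome inhibitor), and were then kept for 12 h in fresh medium holding DMSO or 10 µM ATRA (all-trans retinoic acid, the ligand of nuclear retinoic acid receptors). The groups were DMSO then DMSO (DMSO, n = 3 libraries), DMSO then ATRA (ATRA, n = 3), Cfz then DMSO (Cfz, n = 1) and Cfz then ATRA (ATRA+Cfz, n = 1). All groups are of 1 cell line, the Cfz dose was not given in the sources used here, and nothing in the labels tells if each library had its own culture.

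Before S phase, the origin recognition complex (ORC) marks replication origins, and CDC6 and CDT1 load the ring-shaped MCM2-7 helicase onto DNA, a step called licensing that geminin (GMNN) blocks by binding CDT1. In S phase the kinase CDC7 with its partner DBF4 helps to convert the loaded ring into the active helicase, in which CDC45 and the GINS complex join MCM2-7. DNA polymerases, the sliding clamp PCNA, its loader RFC, the single-strand binding protein RPA and the nuclease and ligase that seal lagging-strand fragments then work at the fork. Many of these genes are known targets of E2F transcription factors, and their RNA rises and falls with the share of cells in cycle. In RNA from a bulk culture, fewer cells in S phase and less RNA per cell cannot be told apart.

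Promoter sequence was set beside the values because most members moved together. RefSeq windows (build GRCh38.p14, 250 bases before to 50 bases after the start) were at hand for 42 of the 48 members, and were searched on both strands for the E2F-type words TTTGGCGC, TTTCCCGC, TTTCGCGC and TTTGCCGC. At least 1 of these words lay in a window of 21 of the 42 members (50%), against 708 of 10603 tested genes with a window (6.68%) and 1090 of 27305 genes overall (3.99%). The 7 stretches below show MCM6, a helicase subunit with the most words, the loading factor CDT1, the GINS subunit GINS2, the ligase LIG1, the clamp PCNA, the fork protection gene TIPIN, and ORC3, which was called lower in no comparison. They are written 5′ to 3′ on the strand of the gene, with all words before the start, and carry the words (or their reverse complement) in capitals. The words begin 152 to 86 bases before the start in MCM6 (chr2:135876492-135876625, minus strand), 35 bases in CDT1 (chr16:88803724-88803788, plus strand), 31 bases in GINS2 (chr16:85688955-85689015, minus strand) and 114 bases in LIG1 (chr19:48170421-48170488, minus strand). They begin 59 bases before the start in PCNA (chr20:5126644-5126711, minus strand), 66 and 62 bases in TIPIN (chr15:66356710-66356781, minus strand) and 12 bases in ORC3 (chr6:87590093-87590134, plus strand).
MCM6: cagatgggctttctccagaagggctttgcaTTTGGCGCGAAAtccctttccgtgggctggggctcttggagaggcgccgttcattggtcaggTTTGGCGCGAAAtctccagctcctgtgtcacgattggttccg
CDT1: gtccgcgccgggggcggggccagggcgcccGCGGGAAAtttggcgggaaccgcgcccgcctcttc
GINS2: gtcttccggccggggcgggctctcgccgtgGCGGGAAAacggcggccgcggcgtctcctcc
LIG1: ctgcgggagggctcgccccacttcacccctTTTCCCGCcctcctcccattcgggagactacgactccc
PCNA: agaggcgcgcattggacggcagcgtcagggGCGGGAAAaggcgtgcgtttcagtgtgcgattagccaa
TIPIN: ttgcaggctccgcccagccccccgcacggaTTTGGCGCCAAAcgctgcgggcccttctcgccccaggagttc
ORC3: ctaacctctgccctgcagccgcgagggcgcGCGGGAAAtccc
In MCM6 the run TTTGGCGCGAAA stands in the window at 2 places, and each holds 2 overlapping words on opposite strands. In TIPIN the run TTTGGCGCCAAA reads the same on both strands and was counted as 2 words. The CCAAT word, another common promoter element, lay in the windows of 25 of the 42 members (59.5%) against 43.5% of tested genes, and the word TTTGAA in those of 1 member (2.38%) against 14.3%. These are matches of letters and were not tested as binding sites.

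Depth was 14136937 to 17155331 reads per library, and 3 reads corresponded to 0.175 to 0.212 FPM. The 8 plasma cell markers looked up were all present and summed to 7416 to 10717 FPM. Of 4 markers looked up for each other type, 1 T and NK cell, 2 myeloid, 3 stromal and 4 epithelial markers had a row. CD2, CD3D, NKG7, LYZ, S100A8 and COL3A1 had none. Each of these types summed to at most 3.67 FPM in any library. The T cell gene CD3E stood at 0.214 to 1.54 FPM and the myeloid gene CD14 at 0 to 0.257 FPM. The epithelial gene EPCAM stood at 0.292 to 0.805 FPM with DMSO, 0.376 to 0.64 FPM with ATRA, 3.34 FPM with Cfz and 1.55 FPM with ATRA+Cfz. The stromal gene PDGFRB stood at 0.4 to 0.987 FPM with DMSO, 0.883 to 1.34 FPM with ATRA, 2.29 FPM with Cfz and 1.77 FPM with ATRA+Cfz. The myeloid gene S100A9 stood at 0.06 to 1.01 FPM, with a mean of 0.148 FPM with DMSO and 0.733 FPM with ATRA. The library DMSO 3 stood apart from DMSO 1 and DMSO 2, with a chi-square divided by its degrees of freedom of 10.5 and 11.0, where DMSO 1 and DMSO 2 gave 1.81, and the counts of these genes that rest on the DMSO libraries are also given without it. Mitochondrially encoded RNA took 5.85% of the reads of DMSO 3, 5.43% of Cfz and 5.72% of ATRA+Cfz, against 3.67% to 4.12% of the other 5 libraries. Exons of 16 members overlap those of a gene on the opposite strand (among them MCM2, MCM7, GINS2, LIG1, FEN1, RPA1 and RPA3) and exons of 7 overlap a gene on the same strand (among them FEN1, POLD1, POLD3 and CHAF1B). The strand setting was not given in the sources used here, so it is not known if reads from stretches shared with an opposite-strand gene were kept apart. Reads from stretches shared on the same strand cannot be told apart by strand in any setting.

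Replication genes were lower in every drug group and lowest where both drugs were given. Summed over the 48 genes, they held 5262, 5240 and 5462 FPM in the DMSO libraries, 3326, 3350 and 3359 FPM in the ATRA libraries, 4323 FPM in the Cfz library and 2208 FPM in the ATRA+Cfz library. These sums were 62.9% of the DMSO mean for ATRA, 81.2% for Cfz and 41.5% for ATRA+Cfz. The DMSO and ATRA libraries did not overlap, and the lone Cfz and ATRA+Cfz libraries lay outside both ranges. Of the libraries with a high mitochondrial share, DMSO 3 had the highest sum of the 8 libraries and ATRA+Cfz the lowest. The sum of Cfz lay between those of the ATRA and the DMSO libraries. The part of that share in these sums was not tested.

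With ATRA alone, 44 of the 48 genes fell and 1 rose at an adjusted p under 0.05 (limma, Benjamini-Hochberg over all genes tested), where 27.4% of all tested genes fell and 21.3% rose. Their median log2 difference was -0.71, against -0.03 over all tested genes. With Cfz alone, 35 fell and 2 rose, against 17% and 7.94% of all tested genes, with a median of -0.34 against -0.08. With ATRA+Cfz, 45 fell and 1 rose, against 30.5% and 20% of all tested genes, with a median of -1.37 against -0.05. These 3 comparisons share the DMSO libraries, and log2 differences are on the log2(FPM + 0.5) scale. Differences in size between genes or roles are given as values and were not tested. Without DMSO 3 the counts were 44 lower and 1 higher for ATRA (29.6% and 22.3% of all tested genes), 36 and 3 for Cfz (23.8% and 10.6%), and 45 and 1 for ATRA+Cfz (33.3% and 22.2%). In all 3 drug groups together, 34 genes were called lower, against 9.06% of all tested genes, and without DMSO 3 35 genes, against 12.7%.

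**Figure D1:**
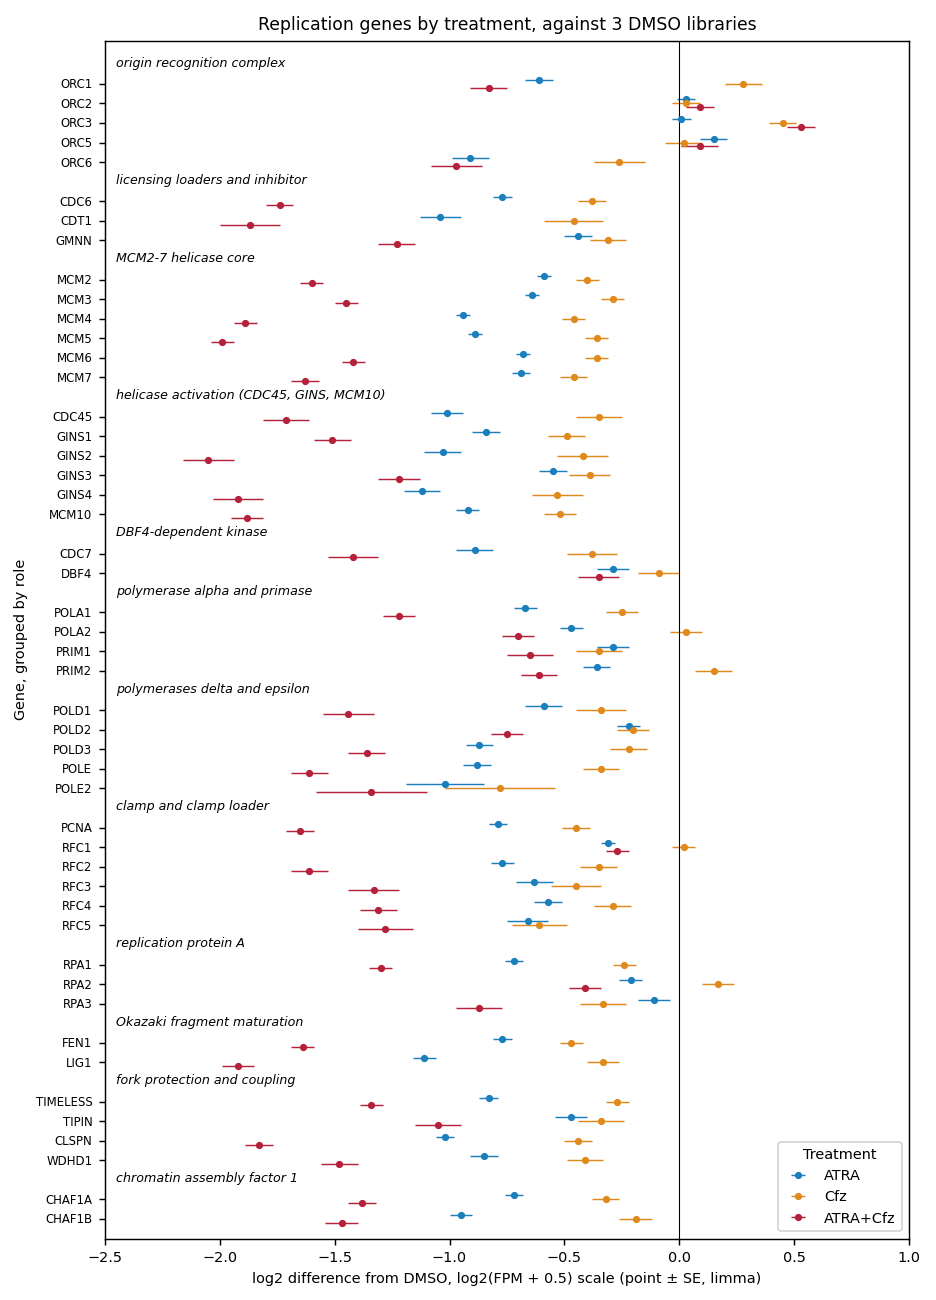
Log2 difference from DMSO (x axis, log2(FPM + 0.5) scale, point and SE from limma) for each of the 48 genes (y axis, grouped by role) with ATRA, Cfz and ATRA+Cfz. Most ATRA+Cfz points lie left of the ATRA points, which lie left of the Cfz points, while ORC2, ORC3 and ORC5 lie at or right of 0.

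The origin recognition complex did not move as 1 group. ORC1, the ATPase subunit that helps to load the helicase, and ORC6 fell with ATRA, ORC2 and ORC3 did not pass the test, and ORC5 was called higher. ORC4, counted below among the licensing partners, was also called lower with ATRA, at -0.17 ± 0.06 (adjusted p = 0.024). Its differences of -0.13 with Cfz and -0.11 with ATRA+Cfz were not called. ORC6 stood at 49, 54.7 and 60.6 FPM with DMSO, 27.5, 28.4 and 30.8 FPM with ATRA, 45.6 FPM with Cfz and 27.6 FPM with ATRA+Cfz. The ATRA+Cfz library thus lay among the ATRA libraries, and the log2 difference from DMSO was -0.91 ± 0.08 (SE, adjusted p = 1.5e-06) with ATRA and -0.97 ± 0.11 (adjusted p = 1.4e-05) with ATRA+Cfz. ORC1 held 54.8, 53.6 and 58.6 FPM with DMSO, 34.4, 35.9 and 38.8 FPM with ATRA, 67.8 FPM with Cfz and 31 FPM with ATRA+Cfz. It was highest in the Cfz library, where it rose by 0.28 ± 0.08 (adjusted p = 0.026), and it fell by 0.61 with ATRA (adjusted p = 4.4e-06). The rise of ORC1 with Cfz did not pass the test with lane 1 alone, without DMSO 1 or without DMSO 2.

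ORC3, a subunit of the ORC core, held 58.5, 62.2 and 58.9 FPM with DMSO, 59.3, 60.8 and 60.6 FPM with ATRA, 81.8 FPM with Cfz and 86.8 FPM with ATRA+Cfz. Both libraries with a Cfz pulse lay above all 6 without it, while the DMSO and ATRA libraries overlapped. The log2 difference was 0.45 ± 0.06 (adjusted p = 0.00036) with Cfz, 0.53 ± 0.06 (adjusted p = 1.6e-05) with ATRA+Cfz and 0.01 ± 0.04 (adjusted p = 0.89) with ATRA. ORC2, its partner in the core, ranged from 76.1 to 82.4 FPM over the 8 libraries and was not called in any comparison. ORC5 held 34.5, 37 and 39.6 FPM with DMSO, 41.2, 40.4 and 41.9 FPM with ATRA, 37.5 FPM with Cfz and 39.4 FPM with ATRA+Cfz. All 3 ATRA libraries lay above all 3 DMSO libraries, which was so for 25.5% of all tested genes. Its log2 difference of 0.15 ± 0.06 (adjusted p = 0.047) lost its call in 8 of 18 alternative settings, among them without DMSO 1, without DMSO 2 and without any 1 of the ATRA libraries. ORC1, ORC2 and ORC3 were singled out after their values were seen.

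The loading factors and their inhibitor fell with each treatment. CDC6, the ATPase that joins ORC at the origin, stood at 105, 105 and 113 FPM with DMSO, 62.4, 62.2 and 63.9 FPM with ATRA, 82.4 FPM with Cfz and 31.9 FPM with ATRA+Cfz. CDT1, which brings the helicase to the origin, stood at 28.4, 25.2 and 30.2 FPM with DMSO, 13.5, 12.1 and 14.3 FPM with ATRA, 20.1 FPM with Cfz and 7.28 FPM with ATRA+Cfz. GMNN, which holds CDT1 back once S phase has begun, stood at 67.1, 70.9 and 78 FPM with DMSO, 51.5, 54.7 and 52.6 FPM with ATRA, 58 FPM with Cfz and 30.4 FPM with ATRA+Cfz. In all 3 genes the Cfz library lay between the ATRA and the DMSO libraries, and the ATRA+Cfz library lay below the rest. The Cfz calls of CDT1 and GMNN were lost with DESeq2 and with lane 1 alone, and that of GMNN also with median-ratio scaling. The ATRA difference was -0.77 ± 0.04 for CDC6 (adjusted p = 7.1e-08), -1.04 ± 0.09 for CDT1 (adjusted p = 1.9e-06) and -0.44 ± 0.06 for GMNN (adjusted p = 5.9e-05). The loading factors thus had a larger ATRA difference than their inhibitor in these libraries. With ATRA+Cfz, CDC6 was left at 29.6%, CDT1 at 26% and GMNN at 42.2% of the DMSO mean.

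All 6 genes of the MCM2-7 ring fell with each treatment, and their replicates lay close together. Their sum was 1850, 1833 and 1890 FPM with DMSO, 1102, 1102 and 1107 FPM with ATRA, 1414 FPM with Cfz and 591 FPM with ATRA+Cfz, which left 59.4%, 76.1% and 31.8% of the DMSO mean. MCM5 stood at 178, 176 and 175 FPM with DMSO, 94.8, 94.4 and 95.7 FPM with ATRA, 138 FPM with Cfz and 44.2 FPM with ATRA+Cfz. MCM4 stood at 524, 525 and 544 FPM with DMSO, 282, 273 and 276 FPM with ATRA, 385 FPM with Cfz and 143 FPM with ATRA+Cfz. These subunits had the largest ATRA differences of the 6, -0.89 ± 0.03 for MCM5 (adjusted p = 3.9e-09) and -0.94 ± 0.03 for MCM4 (adjusted p = 1.8e-09). MCM2, a subunit that also binds histones, stood at 233, 229 and 238 FPM with DMSO, 154, 154 and 157 FPM with ATRA, 177 FPM with Cfz and 76.9 FPM with ATRA+Cfz. It had the smallest ATRA difference of the ring, -0.59 ± 0.03 (adjusted p = 7.1e-08).

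MCM3 held 364, 362 and 351 FPM with DMSO, 226, 231 and 236 FPM with ATRA, 294 FPM with Cfz and 131 FPM with ATRA+Cfz. MCM6, whose promoter stretch is printed above, held 316, 307 and 322 FPM with DMSO, 196, 198 and 194 FPM with ATRA, 244 FPM with Cfz and 117 FPM with ATRA+Cfz. MCM7 held 235, 233 and 259 FPM with DMSO, 150, 152 and 148 FPM with ATRA, 176 FPM with Cfz and 77.9 FPM with ATRA+Cfz. Each of the 6 ring genes had the same order of groups, with ATRA+Cfz lowest, then ATRA, then Cfz, then DMSO. The DMSO and ATRA libraries did not overlap, and the lone Cfz and ATRA+Cfz libraries lay outside both ranges. Cfz differences in the ring ran from -0.46 to -0.29 and ATRA+Cfz differences from -1.99 (MCM5) to -1.42 (MCM6).

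Genes that turn the loaded ring into a moving helicase fell as a group. CDC45, the 4 GINS genes and MCM10, which aids activation of the helicase, were called lower in each of the 3 drug groups. GINS2 stood at 24.8, 25.5 and 25.7 FPM with DMSO, 11.2, 12.6 and 12.8 FPM with ATRA, 18.8 FPM with Cfz and 5.72 FPM with ATRA+Cfz. GINS4 stood at 33.9, 34.6 and 36.7 FPM with DMSO, 16.2, 14.3 and 17.4 FPM with ATRA, 24.1 FPM with Cfz and 8.91 FPM with ATRA+Cfz. GINS3, the member of this role least reduced by ATRA, stood at 27.7, 27.9 and 30 FPM with DMSO, 19.3, 20 and 18.7 FPM with ATRA, 21.7 FPM with Cfz and 11.9 FPM with ATRA+Cfz. The DMSO libraries were all above the Cfz library and the Cfz library above all ATRA libraries in these 3 genes. GINS4 had the largest ATRA difference of all 48 genes, -1.12 ± 0.08 (adjusted p = 4.1e-07), against -0.55 ± 0.06 (adjusted p = 2.4e-05) for GINS3. GINS2 had the largest ATRA+Cfz difference of all 48, -2.05 ± 0.11 (adjusted p = 4.1e-08), and was left at 22.6% of the DMSO mean. CDC45 fell by 1.01 with ATRA (adjusted p = 3.7e-07), from 45.6 ± 2.1 FPM (SD, n = 3) to 22.4 ± 2 FPM (n = 3), and MCM10 fell by 0.92 (adjusted p = 3.9e-08), from 70.5 ± 2.3 to 37 ± 1.1 FPM. With Cfz, CDC45 differed by -0.35 ± 0.10. Its Cfz call was lost in 5 of 16 alternative settings, among them median-ratio and TMM scaling, DESeq2 and without DMSO 1. The Cfz calls of GINS2 and GINS3 were lost with DESeq2 and with lane 1 alone, and that of GINS4 with lane 1 alone.

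Both partners of the DBF4-dependent kinase fell with ATRA, CDC7 by more than DBF4. CDC7, the catalytic subunit, stood at 45.6, 49.2 and 58.6 FPM with DMSO, 27.6, 26.3 and 27.7 FPM with ATRA, 39.1 FPM with Cfz and 18.7 FPM with ATRA+Cfz. DBF4, its activating subunit, stood at 106, 108 and 130 FPM with DMSO, 92, 96.5 and 92.6 FPM with ATRA, 108 FPM with Cfz and 89.7 FPM with ATRA+Cfz. DMSO 3 was the highest library for both genes. CDC7 fell by 0.89 with ATRA (adjusted p = 3.1e-06) and DBF4 fell by 0.29 (adjusted p = 0.0034). With Cfz, the DBF4 library lay within the DMSO range (-0.09 ± 0.09, adjusted p = 0.54), and with ATRA+Cfz the gene kept 78% of the DMSO mean, against 36.5% for CDC7.

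Polymerase alpha and its primase, which lay down the primers of new strands, fell with ATRA in all 4 genes, with a median difference of -0.41 against -0.69 in the MCM2-7 ring. POLA1, the catalytic polymerase subunit, stood at 137, 125 and 124 FPM with DMSO, 76.9, 81.9 and 83.3 FPM with ATRA, 108 FPM with Cfz and 54.9 FPM with ATRA+Cfz. PRIM1, the catalytic primase subunit, stood at 37.6, 37.4 and 44 FPM with DMSO, 33.8, 32.3 and 31 FPM with ATRA, 30.9 FPM with Cfz and 25.1 FPM with ATRA+Cfz. The Cfz library lay just below the ATRA libraries for PRIM1 and above them for POLA1. POLA1 fell by 0.67 with ATRA (adjusted p = 4.7e-07) and PRIM1 fell by 0.29 (adjusted p = 0.0049). The accessory subunits POLA2 and PRIM2 fell with ATRA, with differences of -0.47 (adjusted p = 1.7e-05) and -0.36 (adjusted p = 0.00028), and were not called with Cfz, with log2 differences of 0.03 and 0.15.

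Of the polymerases that copy the leading and lagging strands, all 5 genes in this set fell with ATRA. Their subunits POLE3, POLD4 and POLE4 are counted below among other fork enzymes. With ATRA, POLE3 was called lower (-0.28, adjusted p = 0.00011). POLD4 (-0.08, adjusted p = 0.59) and POLE4 (-0.02, adjusted p = 0.89) were not called. POLE2, a subunit of polymerase epsilon, stood at 9.15, 8.1 and 9.9 FPM with DMSO, 3.09, 5.35 and 4.46 FPM with ATRA, 5.06 FPM with Cfz and 3.25 FPM with ATRA+Cfz. It rested on the fewest reads of the 48 genes (77 in Cfz and 46 in ATRA+Cfz) and had the largest SE, and the Cfz and ATRA+Cfz libraries both lay within the range of the ATRA libraries. Its log2 difference was -1.02 ± 0.17 (adjusted p = 0.00039) with ATRA and -0.78 ± 0.24 (adjusted p = 0.035) with Cfz, the largest Cfz difference of the 48. The Cfz call of POLE2 was lost in 5 of 16 alternative settings. These were median-ratio scaling, DESeq2, lane 1 alone, without DMSO 1 and without ATRA 3. POLD2, an accessory subunit of polymerase delta, stood at 120, 105 and 109 FPM with DMSO, 95.1, 97.7 and 93 FPM with ATRA, 97.1 FPM with Cfz and 65.9 FPM with ATRA+Cfz. It fell by 0.22 with ATRA (adjusted p = 0.0031) and fell by 0.75 with ATRA+Cfz (adjusted p = 4.1e-06). Of the catalytic subunits, POLE fell by 0.88 with ATRA (adjusted p = 1.5e-07) from 64.6 ± 3.6 to 34.8 ± 1.3 FPM, and POLD1 fell by 0.59 (adjusted p = 6.4e-05) from 57.7 ± 6.2 to 38 ± 2.7 FPM. POLD3 fell by 0.87 with ATRA (adjusted p = 3.2e-07) and was not called with Cfz, at -0.22 ± 0.08 (adjusted p = 0.078).

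The sliding clamp and all 5 subunits of its loader fell with ATRA. PCNA, the ring that tethers polymerases to DNA, stood at 318, 321 and 350 FPM with DMSO, 187, 190 and 195 FPM with ATRA, 241 FPM with Cfz and 104 FPM with ATRA+Cfz. RFC1, the large subunit of the clamp loader, stood at 191, 192 and 193 FPM with DMSO, 156, 155 and 153 FPM with ATRA, 194 FPM with Cfz and 159 FPM with ATRA+Cfz. RFC5, a small subunit, stood at 29.4, 34.3 and 28.8 FPM with DMSO, 21.2, 17.7 and 19.2 FPM with ATRA, 20 FPM with Cfz and 12.4 FPM with ATRA+Cfz. For RFC1 the libraries fell into those with ATRA and those without, whatever the pulse. For PCNA the DMSO and ATRA libraries were apart, and the lone Cfz and ATRA+Cfz libraries lay outside both ranges. The PCNA difference was -0.79 ± 0.04 with ATRA (adjusted p = 4.3e-08), -0.45 ± 0.06 with Cfz (adjusted p = 0.00032) and -1.65 ± 0.06 with ATRA+Cfz (adjusted p = 2.8e-09). RFC1 fell by 0.31 with ATRA (adjusted p = 9.1e-06) and did not pass the test with Cfz (0.02 ± 0.05, adjusted p = 0.84). RFC5 fell by 0.61 with Cfz (adjusted p = 0.0043), close to its ATRA difference of -0.66 ± 0.09. The other small subunits, RFC2, RFC3 and RFC4, were called lower in all 3 drug groups, with ATRA differences of -0.77, -0.63 and -0.57. The Cfz calls of all 3 were lost with DESeq2 and with lane 1 alone. That of RFC4 was also lost with median-ratio scaling, TMM scaling and edgeR.

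The 3 subunits of replication protein A, which coats single-stranded DNA, did not share 1 pattern, since RPA1 and RPA2 fell with ATRA and RPA3 did not pass the test. RPA1, the large subunit, stood at 208, 208 and 207 FPM with DMSO, 123, 130 and 124 FPM with ATRA, 176 FPM with Cfz and 83.9 FPM with ATRA+Cfz. RPA3, the small subunit, stood at 35.1, 38.2 and 40.3 FPM with DMSO, 32.5, 36.9 and 35.4 FPM with ATRA, 30 FPM with Cfz and 20.4 FPM with ATRA+Cfz. The DMSO and ATRA libraries overlapped for RPA3 and stood far apart for RPA1. RPA1 fell by 0.72 with ATRA (adjusted p = 2.5e-08). RPA3 did not pass the test with ATRA (-0.11 ± 0.07, adjusted p = 0.19) but fell by 0.33 with Cfz (adjusted p = 0.027) and fell by 0.87 with ATRA+Cfz (adjusted p = 1.3e-05). Its Cfz call was lost in 6 of 16 alternative settings, among them median-ratio and TMM scaling, edgeR, DESeq2 and without DMSO 2. RPA2, the middle subunit, held 67.9, 65.4 and 71.5 FPM with DMSO, 58.1, 57.6 and 61.1 FPM with ATRA, 76.6 FPM with Cfz and 51.4 FPM with ATRA+Cfz. Its Cfz library was the highest of the 8, with a difference of 0.17 ± 0.07 that was not called (adjusted p = 0.093).

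The genes that finish lagging-strand fragments fell with each treatment. LIG1, the ligase that seals the nicks, stood at 93.4, 91.2 and 94.4 FPM with DMSO, 40.8, 42.4 and 45.6 FPM with ATRA, 73.7 FPM with Cfz and 24.2 FPM with ATRA+Cfz. FEN1, the nuclease that trims the flaps, stood at 185, 194 and 197 FPM with DMSO, 115, 109 and 112 FPM with ATRA, 139 FPM with Cfz and 61.4 FPM with ATRA+Cfz. In both genes the DMSO and ATRA libraries did not overlap, and the lone Cfz and ATRA+Cfz libraries lay outside both ranges. LIG1 fell by 1.11 with ATRA (adjusted p = 1.1e-08), which left 46.2% of the DMSO mean, and FEN1 fell by 0.77 (adjusted p = 2.7e-08), which left 58.4%. With Cfz the order was the other way round, with -0.33 ± 0.07 for LIG1 and -0.47 ± 0.05 for FEN1. The Cfz call of LIG1 was lost with DESeq2 and with lane 1 alone.

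Fork protection genes and the chromatin assembly factor followed the same order of treatments. CLSPN, the adaptor (claspin) between the fork and the checkpoint kinase, stood at 134, 132 and 131 FPM with DMSO, 65.8, 67.5 and 62.5 FPM with ATRA, 97.7 FPM with Cfz and 36.9 FPM with ATRA+Cfz. TIPIN, the partner of TIMELESS, stood at 27.8, 26.4 and 30.1 FPM with DMSO, 21.1, 20.4 and 18.8 FPM with ATRA, 22.1 FPM with Cfz and 13.3 FPM with ATRA+Cfz. CLSPN fell by 1.02 with ATRA (adjusted p = 5.4e-09) and TIPIN fell by 0.47 (adjusted p = 0.00019). TIMELESS fell by 0.83 with ATRA (adjusted p = 1.5e-08) and WDHD1, which couples the helicase to polymerase alpha, fell by 0.85 (adjusted p = 3.9e-07).

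The histone chaperone CAF-1 places histones on new DNA behind the fork. CHAF1A, its large subunit, stood at 129, 131 and 141 FPM with DMSO, 81.1, 80.9 and 80.1 FPM with ATRA, 107 FPM with Cfz and 50.9 FPM with ATRA+Cfz. CHAF1B, its middle subunit, stood at 85.5, 84.5 and 90.9 FPM with DMSO, 45, 43 and 46.1 FPM with ATRA, 76.2 FPM with Cfz and 31 FPM with ATRA+Cfz. Both subunits fell with ATRA, with differences of -0.72 (adjusted p = 7.9e-08) and -0.95 (adjusted p = 2.6e-08) and with no overlap of libraries. With Cfz, CHAF1A fell by 0.32 (adjusted p = 0.0024) while CHAF1B, at -0.19 ± 0.07, was not called (adjusted p = 0.062).

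**Figure D2:**
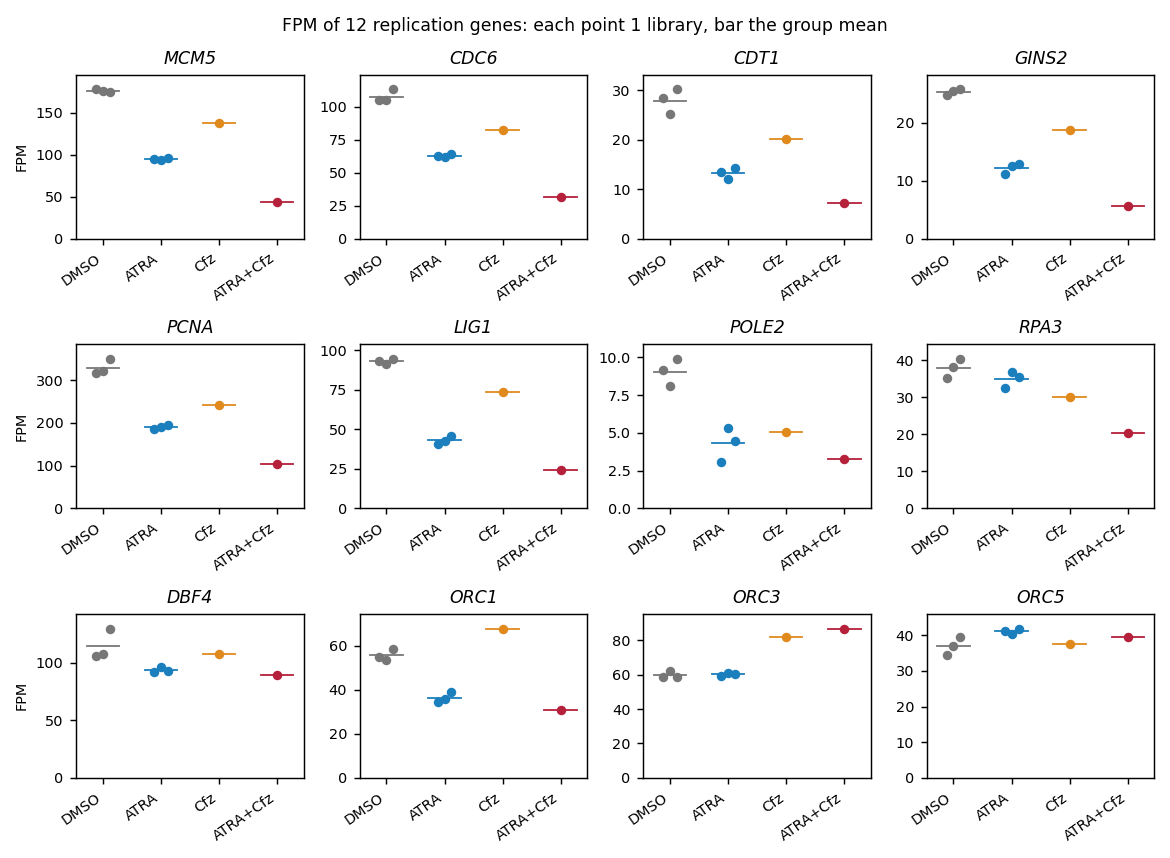
FPM (y axis, from 0) of 12 of the genes in each library, with 1 point per library and a bar at the group mean (x axis, treatment). In MCM5, CDC6 and LIG1 the 4 groups step down from DMSO through Cfz and ATRA to ATRA+Cfz, whereas ORC3 is higher in the 2 libraries with a Cfz pulse.

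Across the set, all ATRA libraries lay below all DMSO libraries in 44 of the 48 genes, against 31.1% of all tested genes. One gene lay above them throughout (ORC5), and ORC2, ORC3 and RPA3 overlapped. The Cfz library lay below all DMSO libraries in 39 genes, against 46.4% of all tested genes, and the ATRA+Cfz library was the lowest of the 8 in 42 genes, against 28.5%. The full order, with ATRA+Cfz below all ATRA libraries, these below Cfz, and Cfz below all DMSO libraries, held for 33 genes (68.8%) and for 8.9% of all tested genes. Without DMSO 3, ATRA lay below DMSO in 44 genes (36.9% of all tested genes) and above it in 2 (29.4%), and Cfz lay below DMSO in 39 (54.3%). The ATRA+Cfz library was then lowest in 42 genes (29.2%) and the full order held for 33 (10.1%). With all libraries, the exceptions to the order were the 5 ORC genes, DBF4, POLA2, PRIM1, PRIM2, POLD2, POLE2, RFC1, RFC5, RPA2 and RPA3.

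**Figure D3:**
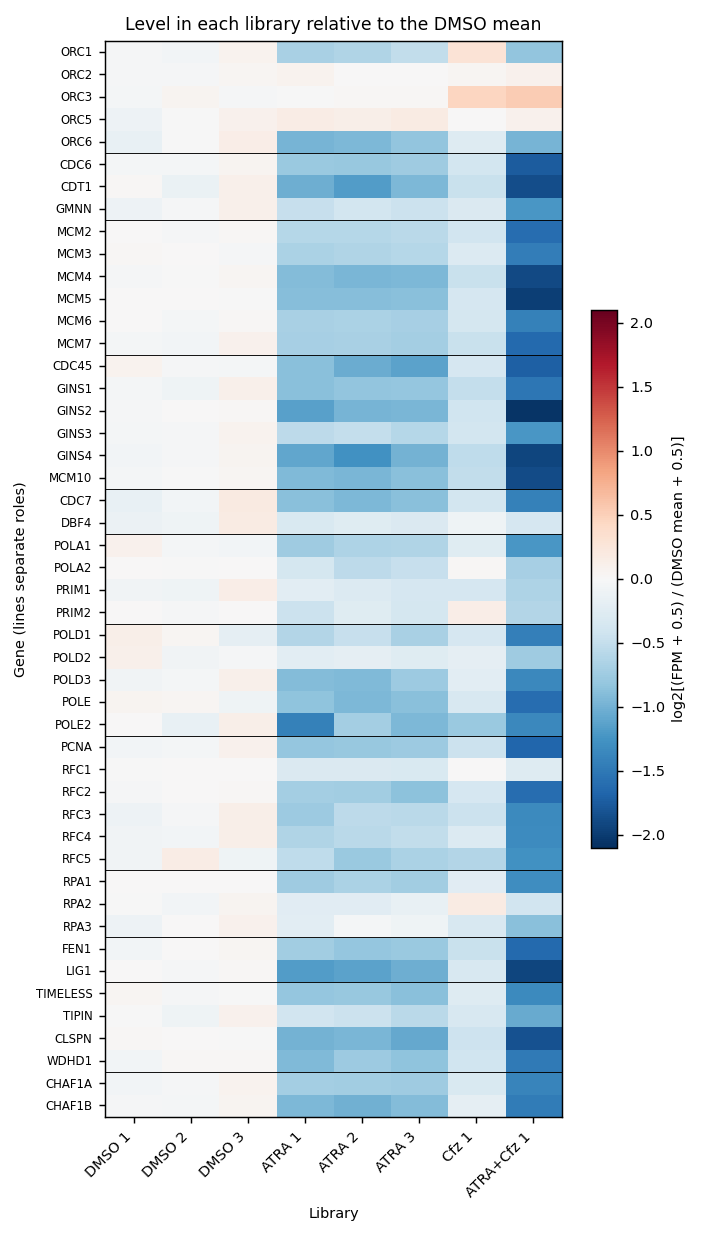
Level of each of the 48 genes (y axis, lines separate roles) in each of the 8 libraries (x axis) as log2 of (FPM + 0.5) over the DMSO mean, with blue below and red above the DMSO mean. The ATRA+Cfz library has the lowest level in 42 of the 48 rows, and ORC3 is red in both columns with a Cfz pulse.

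The treatments differed in the size of the change. A fall of at least 2-fold was found in 7 genes with ATRA (CDT1, CDC45, GINS2, GINS4, POLE2, LIG1 and CLSPN), where 3.02% of all tested genes fell as far. No gene of the 48 fell as far with Cfz alone, where 0.512% of all tested genes did. With ATRA+Cfz, 35 genes fell at least 2-fold, against 8.05% of all tested genes. Without DMSO 3 these counts were 5, 0 and 35 genes, against 3.22%, 0.594% and 8.28% of all tested genes.

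Of the comparisons with DMSO, that of Cfz kept the fewest calls over the alternative settings (12 of 37). Over all genes, the share of Cfz calls that were higher was 31.8%, and 47.9% with median-ratio scaling, 43.6% with TMM scaling and 53.1% with DESeq2. Under these settings 25, 27 and 15 of the 48 genes were called lower, against 11.3%, 12.4% and 5.96% of all tested genes, and 40 had a negative difference under each. The high mitochondrial share of the Cfz library was shared by DMSO 3, whose replication genes summed higher than those of DMSO 1 and DMSO 2. It was also shared by ATRA+Cfz, which had the lowest sum. The part of that share in the result was not tested.

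The Cfz pulse was also compared among cells that were given ATRA. In the ATRA+Cfz library against the 3 ATRA libraries, 40 of the 48 genes were lower and 1 was higher (limma, adjusted p under 0.05), against 20.2% and 10.6% of all tested genes, with a median of -0.68 against -0.04. MCM5 differed by -1.10, CDC6 by -0.97, GINS2 by -1.02 and MCM2 by -1.01 on the log2 scale, each with the ATRA+Cfz library below all 3 ATRA libraries. ORC3 was the gene that was higher, by 0.52 (adjusted p = 9.2e-05). The 7 genes not called were ORC1, ORC2, ORC5, ORC6, DBF4, POLE2 and RFC1. Without DMSO 3, whose removal changes only the shared spread, 41 were lower and 1 higher, against 25.9% and 14.5% of all tested genes. The Cfz difference had the same sign with and without ATRA in 43 of the 48 genes (89.6%) and in 70.9% of all tested genes, and these comparisons share no library.

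The ATRA difference after a Cfz pulse rests on 1 library against 1, so no test was made. In the ATRA+Cfz library, 38 of the 48 genes were at least 1.5-fold lower than in the Cfz library and none was at least 1.5-fold higher, against 12.2% and 9.97% of all tested genes. The median log2 difference was -1.06, against 0.00 over all tested genes. From the reads, the ratio of ATRA+Cfz to Cfz was 0.321 for MCM5 (95% interval 0.293 to 0.351), 0.304 for GINS2 (0.235 to 0.391), 0.328 for LIG1 (0.29 to 0.371) and 0.387 for CDC6 (0.347 to 0.432). It was 0.832 for DBF4 (0.773 to 0.896) and 0.817 for RFC1 (0.773 to 0.864), and the intervals of ORC2 (0.956 to 1.12), ORC3 (0.981 to 1.15) and ORC5 (0.934 to 1.18) included 1. These intervals are exact binomial ones and cover counting error only. The ATRA difference had the same sign without and after Cfz in all 48 genes and in 75% of all tested genes.

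Whether ATRA lowered these genes by more after a Cfz pulse was tested as the interaction, the ATRA difference after Cfz minus the ATRA difference without it. It was negative in 42 of the 48 genes (87.5%) and in 48.4% of all tested genes, with a median of -0.35 against 0.01. Without DMSO 3 it was negative in 43 genes, against 47.1% of all tested genes. It was called in 15 genes, all negative, against 1.31% of all tested genes for negative and 0.992% for positive calls (limma, adjusted p under 0.05). At an unadjusted p under 0.05 there were 32 negative and 0 positive genes, against 9.26% and 8.8% of all tested genes. edgeR called 11 negative and 0 positive genes, against 1.09% and 0.922% of all tested genes, and DESeq2 12 and 0, against 1.44% and 0.455%. All 6 ring genes were among the 15, with MCM5 at -0.74 ± 0.07 (adjusted p = 0.0023), MCM2 at -0.61 ± 0.07 (adjusted p = 0.0067), MCM3 at -0.52, MCM4 at -0.49, MCM7 at -0.48 and MCM6 at -0.38. The others were ORC1 and CDC6 among the licensing genes, MCM10, PCNA, RFC2, RPA1, FEN1, LIG1 and CLSPN. GINS2, which had the largest fall with ATRA+Cfz, had an interaction of -0.61 ± 0.16 that was not called (adjusted p = 0.066).

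The interaction depends on single libraries. Without ATRA 1, ATRA 2 or ATRA 3, the number of genes called, all negative, fell from 15 to 1, 2 and 2, while the share of all tested genes called negative fell from 1.31% to 0.0126%, 0.0379% and 0.0695%. Without DMSO 1 or DMSO 2 the number fell to 8 and 7 (0.935% and 0.638% of all tested genes), and without DMSO 3 it rose to 29 (6.54%). The count thus moved with the number of calls over all genes. MCM5 was the gene that kept its call in all 16 alternative settings, with values of -0.79 to -0.73 and a highest adjusted p of 0.035. POLE2 had the most positive value, 0.45 ± 0.34 (adjusted p = 0.53). The interaction also rests on 1 Cfz and 1 ATRA+Cfz library, which were assumed to vary like the others.

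**Figure D4:**
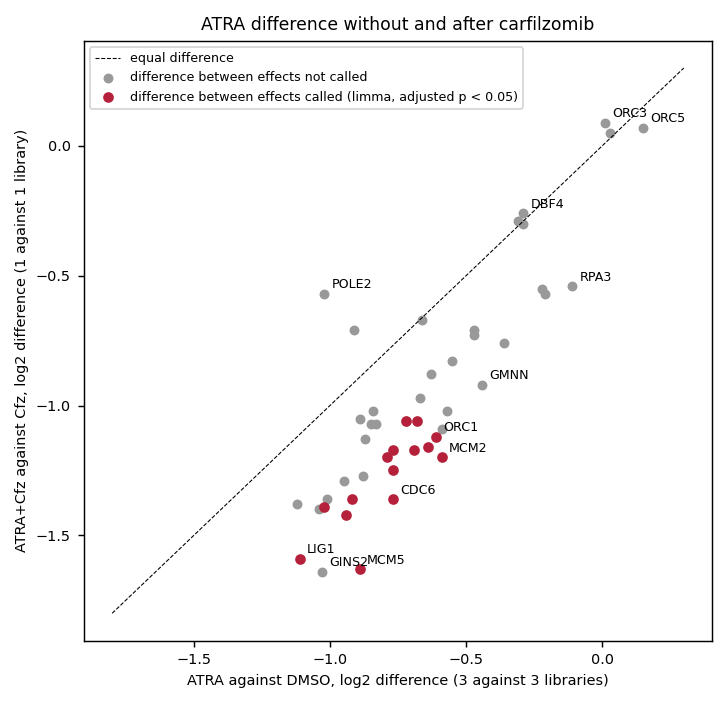
Log2 difference of ATRA from DMSO (x axis, 3 against 3 libraries) and of ATRA+Cfz from Cfz (y axis, 1 against 1 library) for the 48 genes, with a dashed line where both are equal. Of the 48 points 42 lie below the line, and the 15 red points are the genes whose difference between both was called.

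Genes with and without an E2F-type word in their promoter window were set side by side. Only exact matches of the 4 words were counted, so a gene without a word may still hold a similar sequence. The printed CDT1 stretch, for example, also holds tttggcgg, which was not counted. The median ATRA difference was -0.69 in the 21 members with a word and -0.66 in the 21 without, the median Cfz difference -0.38 and -0.27, and the median ATRA+Cfz difference -1.45 and -1.30. Over all tested genes with a window, the ATRA medians were -0.09 with a word and -0.03 without, and the ATRA+Cfz medians were -0.19 and -0.08. With ATRA, the differences ran from -1.11 to 0.01 in members with a word and from -1.01 to 0.15 in members without. With ATRA+Cfz they ran from -2.05 to 0.53 and from -1.88 to 0.09. These medians and ranges are descriptions, and the part of the words in the changes was not tested.

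Other genes of the pathway were taken from 4 lists. The shares of all tested genes to set beside their counts are 27.4% lower and 21.3% higher with ATRA, 17% and 7.94% with Cfz, and 30.5% and 20% with ATRA+Cfz. Of 16 origin firing and licensing partners, 16 fell with ATRA, 11 with Cfz and 15 with ATRA+Cfz, and all 16 differences were negative in each comparison. CDK2, the S phase kinase, fell by 1.28 with ATRA (adjusted p = 1e-08) and its cyclin CCNE1 fell by 1.09 (adjusted p = 7.5e-07). CDK2 stood at 75.6, 78.6 and 87 FPM with DMSO, 33.1, 32.1 and 33.2 FPM with ATRA, 50.6 FPM with Cfz and 19.4 FPM with ATRA+Cfz. Of 17 other fork enzymes, 13 fell and 1 rose with ATRA, 11 fell and 1 rose with Cfz, and 14 fell with ATRA+Cfz. CHTF8, counted as lower in each, stood on 2 gene IDs, and the ID with more reads was used. The other ID held 24.2, 19.7 and 25.9 FPM with DMSO and 19.5, 23.5 and 23.9 FPM with ATRA, which overlap. Reads of the ID used also differed between lanes of a library (chi-square test, adjusted p under 0.05). DSCC1 and CHTF18, parts of an alternative clamp loader, fell with differences of -1.07 (adjusted p = 9.6e-08) and -0.98 (adjusted p = 2.9e-06), and RNASEH1, which removes RNA from RNA-DNA hybrids, rose by 0.10 (adjusted p = 0.034). The gene that rose with Cfz was TOP1, the topoisomerase that relaxes DNA ahead of the fork, by 0.21 (adjusted p = 0.011).

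Replication-coupled chromatin genes held the widest range. Of 10 such genes, 8 fell and 1 rose with ATRA (27.4% and 21.3% of all tested genes), 6 fell and 1 rose with Cfz (17% and 7.94%), and 9 fell and 1 rose with ATRA+Cfz (30.5% and 20%). UHRF1, which guides maintenance methylation to new DNA, stood at 137, 142 and 155 FPM with DMSO, 56.1, 55 and 53.3 FPM with ATRA, 92.3 FPM with Cfz and 23.3 FPM with ATRA+Cfz, a difference with ATRA of -1.39 (adjusted p = 2.3e-09). The paralogous histone chaperones ASF1A and ASF1B, which hand histones to CAF-1 and other assembly factors, moved in opposite directions. ASF1B stood at 58.8, 55.4 and 60.9 FPM with DMSO, 27.9, 26.1 and 28.9 FPM with ATRA, 37.7 FPM with Cfz and 13.8 FPM with ATRA+Cfz. ASF1A stood at 107, 106 and 109 FPM with DMSO, 152, 157 and 153 FPM with ATRA, 191 FPM with Cfz and 233 FPM with ATRA+Cfz. It rose by 0.52 with ATRA (adjusted p = 2.2e-07), by 0.83 with Cfz (adjusted p = 7.4e-07) and by 1.12 with ATRA+Cfz (adjusted p = 8.6e-09), while ASF1B fell by 1.06 with ATRA (adjusted p = 5.6e-08).

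Of 9 replication checkpoint genes, 6 fell and 2 rose with ATRA (27.4% and 21.3% of all tested genes), 3 fell with Cfz (17%), and 5 fell and 1 rose with ATRA+Cfz (30.5% and 20%). The share of this list that rose with ATRA was thus near that of all tested genes. WEE1, the kinase that restrains CDKs, fell by 0.88 (adjusted p = 1.6e-08) and CHEK1, the checkpoint kinase that CLSPN serves, fell by 0.77 (adjusted p = 8.5e-08). ATR, the kinase that acts upstream of CHEK1, rose by 0.15 (adjusted p = 0.016), from 118 ± 6.5 to 130 ± 1.3 FPM, and RAD17, which loads the checkpoint clamp, rose by 0.20 (adjusted p = 0.006), from 92 ± 6.5 to 106 ± 2.3 FPM. Over the 4 lists, 43 of 52 genes fell and 4 rose with ATRA, with a median of -0.51, against 44 and 1 of the 48 licensing and fork genes. Without DMSO 3, 44 of the 52 fell and 4 rose with ATRA, against 29.6% and 22.3% of all tested genes. With Cfz, 34 then fell and 3 rose (23.8% and 10.6%), where 31 and 2 were called with all libraries (17% and 7.94%). With ATRA+Cfz, 44 then fell and 2 rose (33.3% and 22.2%), where 43 and 2 were called with all libraries (30.5% and 20%).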

How the data were processed

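RNA sequencing of 32 samples (4 lanes of 8 libraries) was used. The tools named are kallisto 0.46.2, fastp 0.20.0 and an unversioned DESeq2, per the submitters' processing notes. Genome build, annotation and strand setting: not given in the sources used here. The authors deposited FPM, a CPM unit, per lane, and 100% of the values were whole reads within 0.01 read. A gene ID on more than 1 line was used once (143 IDs), and lanes were averaged.

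limma 3.58.1 (R 4.3.3, with a trend) was run on log2(FPM + 0.5) for genes with a mean of group means of at least 0.5 FPM. One model held the 8 libraries (degrees of freedom: 4 residual, 7.2 prior), with Benjamini-Hochberg adjustment over 15827 genes. It assumes that the lone Cfz and ATRA+Cfz libraries vary like the others. P-values reflect variation among these libraries alone, possibly technical. The fit was also run on simulated data. All simulated libraries had the same spread, so that run could not test the assumption on the lone libraries. edgeR 4.0.16 and DESeq2 1.42.0 on recovered reads, other scalings, pseudocounts and filters, lane 1 alone and each left-out library were alternatives.

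Members, lists and rules were chosen with earlier results of these data known. Per role, the members with the lowest and highest ATRA difference are given for every library, as are the largest changes with Cfz, ATRA+Cfz and in the interaction and any rise with ATRA. Per pathway list, the 2 largest ATRA changes and any rise are named. Promoter words were searched with Python 3.11.15 in RefSeq windows of GRCh38.p14. Plasma cell markers were SDC1, CD38, TNFRSF17, IRF4, PRDM1, XBP1, MZB1 and JCHAIN. Exon overlaps came from GENCODE release 29.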

Additional observations from a re-analysis of the deposited data

Results flagged for a closer look

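The ATRA difference after a Cfz pulse differed from the ATRA difference without it in 15 of the 48 genes by a test of that difference (limma, adjusted p under 0.05), all in the negative direction. Of all tested genes, 1.31% were called in the negative and 0.992% in the positive direction. On the log2 scale the value was -0.74 for MCM5, -0.61 for MCM2, -0.59 for CDC6, -0.52 for MCM3, -0.51 for ORC1, -0.49 for MCM4, and -0.48 each for MCM7, RFC2 and LIG1. It was -0.44 for MCM10, -0.42 for PCNA, -0.39 for FEN1, -0.38 each for MCM6 and CLSPN, and -0.34 for RPA1. ORC1 differs from the other 14 in that it was above all DMSO libraries in the Cfz library, at 67.8 FPM against 53.6 to 58.6 FPM, so that its larger ATRA difference starts from a higher level. MCM5 kept its call in all 16 alternative settings, and MCM2 lost it with lane 1 alone and without ATRA 1. Of the rest, each lost its call in at least 4 of them, among them lane 1 alone.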

How the results depend on the processing

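Of the results for single genes under alternative settings, 3694 kept their direction and side of the threshold, 204 lost the call, 38 gained it and 0 reversed. All alternatives kept the call for 46 of 46 genes with ATRA+Cfz against DMSO, 42 of 45 with ATRA, 33 of 41 with ATRA+Cfz against ATRA, 12 of 37 with Cfz and 1 of 15 in the interaction. With Cfz, the 35 lower genes became 15 with DESeq2 and 13 with lane 1 alone, and the 2 higher genes became 0 with lane 1 alone. Of all tested genes, the share called lower went from 17% to 5.96% and 5.45% under these settings. The share called higher went from 7.94% to 3.53% with lane 1 alone. Leaving out 1 library gave 32 to 36 lower genes with Cfz (14.1% to 23.8% of all tested genes) and 1 to 3 higher (6.92% to 10.6%). It gave 0 to 1 higher genes with ATRA (18.1% to 22.3%) and 1 to 29 lower genes in the interaction (0.0126% to 6.54%). The interaction had 1 lower gene with lane 1 alone (0.0632%). The 1 gene higher with ATRA became 0 with no filter, with DESeq2 and with lane 1 alone (14%, 18.1% and 13% of all tested genes). The 1 higher with ATRA+Cfz became 2 with edgeR (23.9% of all tested genes). A 2-fold limit left 29 genes lower in ATRA+Cfz against Cfz, and the share of all tested genes at that limit is not given here. Of all genes called, the share that was higher went from 34.4% to 45.3% with edgeR for ATRA+Cfz against ATRA, and from 43.1% to 22.3% with median-ratio scaling in the interaction. Library numbers did not pair DMSO and ATRA libraries (correlation of deviations -0.0109 to 0.0134). The fit with the replicate number as a block gave 44 lower and 1 higher (27.3% and 21% of all tested genes). Lane 1 alone holds 1 of 4 lanes. The causes of these differences were not tested.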
